A study of Mus musculus with 55 samples.

Results

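The genes described here act in the DNA damage response and in homologous recombination. They were taken by symbol from a list of 42, and 40 of these were present in the pre-mRNA tables of both cell lines, out of 9911 genes listed for CCNA-GFP cells and 10237 for CTCF-AID cells. Wrn and Topbp1 were not listed and are not analysed here. By role the 40 genes comprise 5 signalling kinases, 7 break sensors and mediators, 3 end-joining genes, 11 recombination genes, 8 Fanconi genes, 5 genes of strand break and mismatch repair, and the helicase gene Blm.

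When a chromosome breaks, the Mre11a-Rad50-Nbn complex and the Ku dimer (Xrcc6 and Xrcc5) bind the ends, and the kinases Atm, Atr and Prkdc signal from them to the checkpoint kinases Chek1 and Chek2. Ends are then either joined directly, through Prkdc and Lig4, or repaired on a sister chromatid by Brca1, Brca2, Palb2 and their partners, while the Fanconi proteins act on DNA crosslinks. ES cells divide rapidly and carry much replication stress, so these genes are in constant use there, and damage signalling to repair is held back while chromosomes are condensed in mitosis.

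The study followed how genes resume transcription after mitosis, and whether the insulator protein CTCF matters for it. CCNA-GFP cells (a cyclin A-GFP cell cycle reporter) and CTCF-AID cells (#EN52.9.1, in which CTCF carries an auxin-inducible degron, a tag that leads to degradation of the protein when auxin, IAA, is given) were both made from E14Tg2a mouse ES cells of strain 129/Ola, kept in serum and LIF, and each is a single line. Both were blocked for 4 h in RO-3306 (10 µM), then for 4 h in nocodazole (50 ng/ml), after which rounded cells were shaken off and released, whereas asynchronous cells were not blocked. In the +IAA arm of CTCF-AID, IAA at 0.5 mM was given for the last 2 h of nocodazole and kept during release, asynchronous cells were treated alongside for 4 h, and the −IAA arm had none. CCNA-GFP has 19 libraries: 3 mitotic, 3 asynchronous, a pair for every time of 20, 30, 40, 60, 90 and 120 min post-release, and 1 at 50 min, which therefore carries no error and no test. CTCF-AID has 18 libraries in each arm: 3 mitotic, 3 asynchronous and a pair for every time of 20, 40, 50, 60, 90 and 120 min. Values are TPM, a level per transcript length, of the unspliced form of each gene. No read counts can be had from TPM, so the depth behind a value is unknown and the replicate spread is the sole measure of error. In bulk RNA, fewer cells transcribing a gene and less pre-mRNA per cell cannot be told apart.

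The listed TPM summed to 13747–42576 per CCNA-GFP library and 17702–43370 per CTCF-AID library, and Spearman's rho between replicates was 0.918–0.984. Of 7 ES cell markers, 6 were listed (Sox2 was not), with a summed level of 48.0–98.0 TPM in asynchronous CCNA-GFP cells. None of 5 primitive endoderm markers was listed, and in the same cells those listed of mesoderm (2 of 4), neural cells (2 of 3), trophoblast (2 of 4) and feeder fibroblasts (1 of 4) summed to at most 5.02 TPM in a library. The trophoblast sum ran from 0.407 to 5.02 TPM over these libraries. Ctcf pre-mRNA in asynchronous CTCF-AID cells was 6.10–9.13 TPM without and 7.52–10.9 TPM with IAA, which does not check the degron, since that acts on the protein.

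Differences below are log2 differences of TPM + 1, which understate the change of genes at low levels, and adjusted p-values are from limma over all genes of the table. All stages are set against the same mitotic libraries. The authors listed genes by their asynchronous or post-release level and not by their mitotic one. This selection may raise the shares higher than in mitosis, for the 40 genes and for all genes, and its size was not tested. At 20 and 30 min after release in CCNA-GFP cells none of the 40 genes passed the test (adjusted p under 0.05), where 0.0% and 0.303% of all genes were higher. At an unadjusted p under 0.05 there were 0 and 3 of the 40 (0% and 7.5%), beside 2.55% and 11.5% of all genes. At 40 min 16 genes had risen (49.3% of all genes), at 60 min 32 (88.3%), at 90 min 33 (89.1%), at 120 min 36 (90.2%), and in asynchronous cells 35 were higher than in mitosis (70.4%). Without the replicate number as a block in the fit, 6 genes had risen at 40 min (23.8% of all genes) and 18 were higher in asynchronous cells (46.7%), and these counts were 7 at 40 min without replicate 1 (26.4%) and 21 in asynchronous cells without replicate 3 (47.0%). None was lower at 60 min, where 0.515% of all genes were. The median difference of the 40 genes was 0.19, 0.71 and 0.67 at 40, 60 and 120 min, and 0.39 in asynchronous cells, beside 0.26, 0.79, 0.68 and 0.33 for all genes. On this scale the medians of the damage response genes were thus close to those of all genes. With 0.1 added to TPM in place of 1 (a pseudocount of 0.1) they were 0.29, 1.13, 1.00 and 0.65. Those of all genes were then 0.47, 1.30, 1.13 and 0.58. The members differed among themselves, as the map of differences from mitosis shows gene by gene.

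These differences hold the rise of nearly the whole table. With every library scaled to the same total of listed TPM, the median of all genes at 60 min in CCNA-GFP moved from 0.79 to 0.02. That of the 40 genes moved from 0.71 to −0.13. Of the 40 genes 14 were then higher and 20 lower than in mitosis (35% and 50%), beside 36.4% higher and 33.3% lower of all genes. For CTCF-AID −IAA at 60 min these shares of all genes were 39.4% and 31.1%, and they are the background of the counts by role at the same total below. A gene described below as risen rose on the deposited scale, and its difference relative to the all-gene median is given where this matters.

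**Figure D1:**
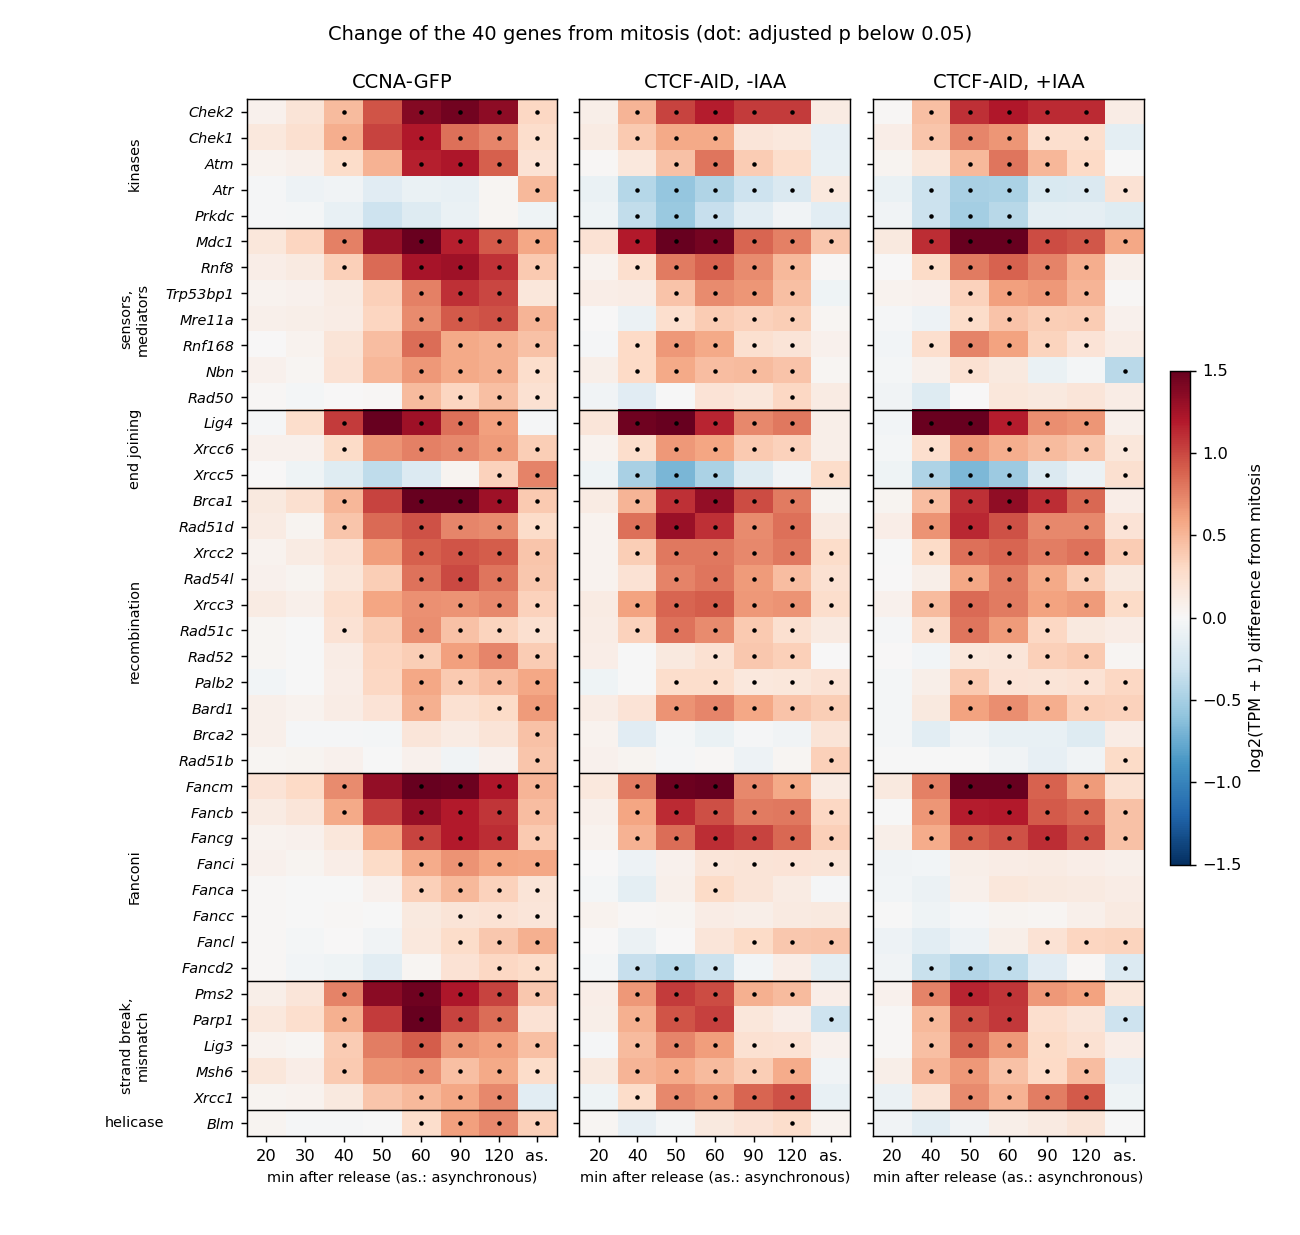
Log2 differences of TPM + 1 from mitosis for the 40 genes (rows, by role) at each stage (columns) for CCNA-GFP and both arms of CTCF-AID; a dot marks an adjusted p under 0.05, and the 50 min column of CCNA-GFP, a single library, has no test; colours saturate at the ends of the scale. In CCNA-GFP at 60 min 32 of 40 genes carry a dot, while Xrcc5, Prkdc and Atr are below 0 there and, with Fancd2, carry a dot for a lower level at 60 min in both CTCF-AID arms.

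Among the signalling kinases, Atm, Chek1 and Chek2 rose by 60 min in both lines, and Atr and Prkdc did not rise in either. Atm, the kinase that answers double-strand breaks, was at 1.25, 0.93 and 1.43 TPM in the mitotic CCNA-GFP libraries and 4.38 and 2.97 TPM in those at 60 min. All libraries at 60 min were above all mitotic ones, with a difference of 1.16 (SE 0.11, adjusted p = 5.56e-09) and, in CTCF-AID −IAA, 0.80 (SE 0.12, adjusted p = 1.43e-06). Scaled to the same total, Atm was higher in CCNA-GFP (0.26, adjusted p = 0.00119) but not called in CTCF-AID −IAA (0.09, adjusted p = 0.272). Chek1, the checkpoint kinase downstream of Atr, went from 1.78, 1.395 and 2.02 to 5.59 and 3.96 TPM, again without overlap (1.20, SE 0.12, adjusted p = 1.13e-08). In CTCF-AID −IAA its difference was 0.57 (SE 0.09, adjusted p = 5.81e-06), but −0.18 at the same total. Chek2, the checkpoint kinase downstream of Atm, was at 2.09, 1.66 and 2.84 TPM in mitosis, 8.64 and 4.77 TPM at 60 min and 6.53 and 6.1 TPM at 120 min. It rose by 1.37 by 60 min (SE 0.14, adjusted p = 1.04e-08) and stood 1.34 above mitosis at 120 min, and by 1.18 and 1.05 in CTCF-AID −IAA.

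Atr, the kinase that answers stalled replication forks, did not rise. In CCNA-GFP it was at 0.732, 0.465 and 0.703 TPM in mitosis, 0.533 and 0.389 TPM at 60 min and 1.19, 0.991 and 1.71 TPM in asynchronous cells. The libraries at 60 min overlapped the mitotic ones (−0.10, SE 0.08, adjusted p = 0.263; lower at the same total, −0.61, adjusted p = 4.54e-06), whereas all asynchronous libraries lay above both, with 60 min 0.58 below them (SE 0.08, adjusted p = 1.91e-06). In CTCF-AID −IAA, Atr was at 1.37, 1.17 and 1.55 TPM in mitosis, 0.7197 and 0.584 TPM at 60 min and 1.599, 1.41 and 1.92 TPM in asynchronous cells, so that every library at 60 min lay below every mitotic one. It fell by 0.43 at 40 min (SE 0.05, adjusted p = 1.97e-07) and by 0.45 at 60 min (SE 0.05, adjusted p = 2.74e-08), and was still 0.21 below mitosis at 120 min (adjusted p = 0.00104), the single gene of the 40 called lower there, a call that was lost without replicate 2 (−0.18, adjusted p = 0.093). Prkdc, the catalytic subunit of the DNA-dependent protein kinase, was at 1.74, 0.864 and 1.94 TPM in mitotic CCNA-GFP cells and 1.18 and 0.778 TPM at 60 min, with overlapping groups (−0.20, SE 0.11, adjusted p = 0.113; lower at the same total, −0.95, adjusted p = 1.51e-05). In CTCF-AID −IAA it fell from 1.94, 1.29 and 2.51 to 1.26 and 0.877 TPM (−0.35, SE 0.11, adjusted p = 0.00457), and in the +IAA arm by 0.42 (SE 0.11, adjusted p = 0.00104). Atm and Atr span 97.6 kb and 94.2 kb of the genome (chr9:53439149-53536740 and chr9:95857597-95951781, GRCm38), so that in CTCF-AID −IAA kinase genes of nearly the same length lay above and below their mitotic level.

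Lig4, the ligase that seals the joined ends and, at 8.64 kb, one of the shortest of the 40 genes, was among the first to rise. It was at 0.418, 0.233 and 0.562 TPM in mitotic CCNA-GFP cells, 2.42 and 1.296 TPM at 40 min and 3.52 TPM in the library at 50 min. The libraries at 40 min were above all mitotic ones (1.05, SE 0.12, adjusted p = 8.54e-07), and this difference was larger than those of 96.3% of all genes. Asynchronous CCNA-GFP libraries had 0.406, 0.346 and 0.407 TPM of Lig4, under 0.5 TPM, the level for listing. Lig4 may thus be listed in that line only through stages after release, so its call and rank there are a description and no independent test. In CTCF-AID −IAA, Lig4 went from 0.652, 0.488 and 0.621 TPM to 4.25 and 2.36 TPM (1.46, SE 0.12, adjusted p = 5.83e-10). Of the subunits of the Ku dimer, which make up the protein in equal parts, Xrcc6 rose on the deposited scale and Xrcc5 did not pass the test or fell. Xrcc6 (Ku70) rose by 0.76 at 60 min in CCNA-GFP (SE 0.11, adjusted p = 1.57e-06) and by 0.60 in CTCF-AID −IAA (SE 0.07, adjusted p = 2.51e-08), but at the same total it stood at 0.03 (adjusted p = 0.638) and 0.0038 (adjusted p = 0.937) and neither call held. Xrcc5 (Ku80) was at 2.06, 1.395 and 2.61 TPM in mitotic CCNA-GFP cells, 1.67 and 1.03 TPM at 60 min and 3.65, 2.83 and 5.9 TPM in asynchronous cells.

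Xrcc5 in CCNA-GFP cells at 60 min overlapped mitosis (−0.21, SE 0.11, adjusted p = 0.0906; lower at the same total, −1.08) and lay 0.95 below asynchronous cells (SE 0.11, adjusted p = 3.56e-07). Relative to the all-gene median its difference from mitosis was −1.001, which placed it at percentile 0.6 of all genes. In CTCF-AID −IAA, Xrcc5 was at 3.98, 2.78 and 4.53 TPM in mitosis, 2.68 and 1.63 TPM at 60 min and 4.74, 3.41 and 6.36 TPM in asynchronous cells. The libraries at 60 min were below all mitotic ones, and it fell by 0.47 (SE 0.09, adjusted p = 3.81e-05), and by 0.54 in the +IAA arm (SE 0.09, adjusted p = 6.39e-06).

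**Figure D2:**
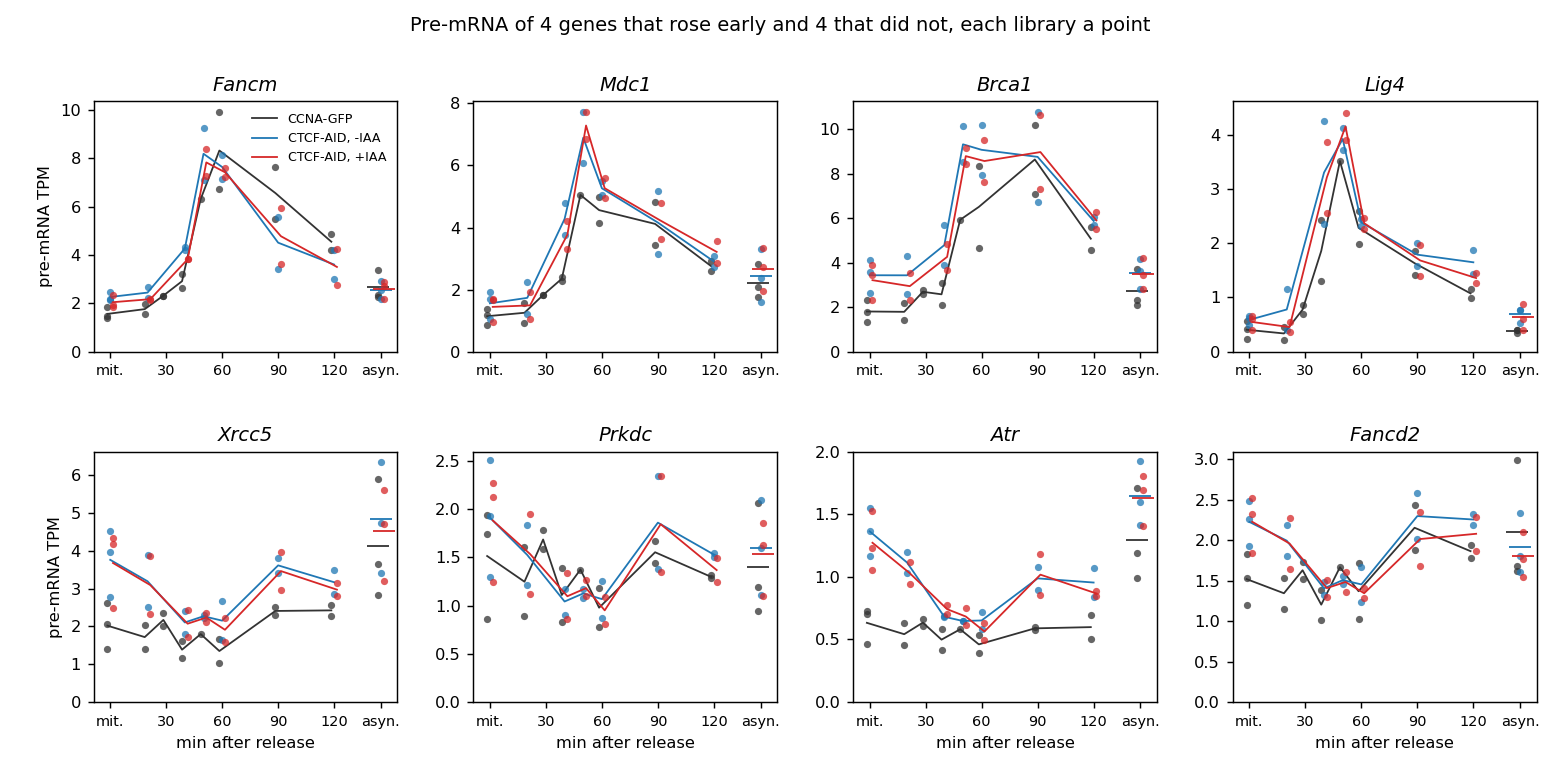
Pre-mRNA TPM of Fancm, Mdc1, Brca1, Lig4, Xrcc5, Prkdc, Atr and Fancd2 in every library of CCNA-GFP and of both arms of CTCF-AID, from mitosis (mit.) to 120 min after release and in asynchronous cells (asyn.); points are libraries, lines join the means of successive stages and short bars are asynchronous means. Fancm reaches 9.93 and 6.72 TPM at 60 min in CCNA-GFP from under 2 TPM in mitosis, whereas Atr and Xrcc5 are at their highest in asynchronous cells of both lines.

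Of the break sensors and mediators, 7 of 7 had risen at 60 min in CCNA-GFP cells with a median of 0.76, where 88.3% of all genes had and their median was 0.79. In CTCF-AID −IAA 6 of 7 had risen (84.8% of all genes), and at the same total 2 of the 7 were higher and 2 lower in each line. Mdc1, the scaffold that binds phosphorylated H2AX, was at 1.18, 0.864 and 1.38 TPM in mitosis and 4.98 and 4.14 TPM at 60 min. Its groups did not overlap (1.48, SE 0.12, adjusted p = 1.20e-09), and in CTCF-AID −IAA it rose by 1.44 (SE 0.14, adjusted p = 2.10e-09). Trp53bp1 (53BP1), which steers breaks towards end joining, went from 1.15, 1.096 and 1.24 TPM to 3.08 and 2.12 TPM at 60 min and 3.497 and 3.99 TPM at 90 min. It rose by 0.76 by 60 min (SE 0.11, adjusted p = 2.50e-06; −0.11 at the same total) and by 1.10 by 90 min, and by 0.71 by 60 min in CTCF-AID −IAA (SE 0.10, adjusted p = 8.46e-07; 0.0017 at the same total, not called). The ubiquitin ligase genes Rnf8 and Rnf168, which act after Mdc1, rose by 1.24 and 0.83 in CCNA-GFP (0.42 and −0.07 at the same total). Of the complex that binds ends first, Mre11a rose by 0.71, Nbn by 0.65 (SE 0.10, adjusted p = 2.16e-06) and Rad50 by 0.47. At the same total Nbn stood at −0.06, and Mre11a (−0.33, adjusted p = 0.00259) and Rad50 (−0.35, adjusted p = 0.000418) were lower than in mitosis.

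Of the 11 recombination genes, 9 rose by 60 min in CCNA-GFP cells (median 0.68; 88.3% and 0.79 for all genes) and 9 in CTCF-AID −IAA (median 0.73; 84.8% and 0.63 for all genes), and at the same total 3 were higher and 7 lower in CCNA-GFP and 4 and 4 in CTCF-AID −IAA. Brca1, the ubiquitin ligase that promotes resection of broken ends, was at 1.78, 1.33 and 2.31 TPM in mitosis, 8.33 and 4.67 TPM at 60 min and 7.07 and 10.2 TPM at 90 min. Every library at 60 and 90 min was above every mitotic one (1.54 at 60 min, SE 0.13, adjusted p = 1.79e-09), and in CTCF-AID −IAA the difference at 60 min was 1.32 (SE 0.12, adjusted p = 6.00e-10). Brca2, which acts on the resected end, was at 1.18, 0.797 and 1.41 TPM in mitosis, 1.52 and 0.919 TPM at 60 min and 1.77, 1.34 and 2.65 TPM in asynchronous cells. Its libraries at 60 min overlapped the mitotic ones (0.18, SE 0.10, adjusted p = 0.0905; −0.57 at the same total), and lay 0.26 below asynchronous cells (adjusted p = 0.0229). Of their partners, Bard1, which pairs with Brca1, and Palb2, which bridges Brca1 and Brca2, were both highest in asynchronous cells in CCNA-GFP, at differences of 0.64 and 0.57 from mitosis, but at 50 min in both arms of CTCF-AID. Among other recombination genes, Rad51d rose by 0.95 (SE 0.08, adjusted p = 1.66e-09), Xrcc2 by 0.89, Xrcc3 by 0.68 and Rad51c by 0.70 by 60 min in CCNA-GFP. At the same total Rad51d and Rad51c were still higher (0.39 and 0.13), whereas Xrcc2 and Xrcc3 were lower (−0.15 and −0.14). Rad51b did not pass the test (0.06, SE 0.09, adjusted p = 0.518; lower at the same total, −0.53, adjusted p = 6.46e-06) and was 0.36 below asynchronous cells at 60 min. Rad54l, a DNA translocase, and Rad52 differed from mitosis by 0.81 and 0.37 (−0.04 and −0.35 at the same total).

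At 60 min in CCNA-GFP the Fanconi genes ran from 0.03 for Fancd2 to 1.94 for Fancm. Fancm, the translocase that anchors the Fanconi core complex on DNA, had the largest mean change of the 40 genes over 20 to 90 min in CCNA-GFP. It was at 1.46, 1.395 and 1.83 TPM in mitosis, 9.93 and 6.72 TPM at 60 min and 2.26, 2.35 and 3.37 TPM in asynchronous cells, so that libraries at 60 min exceeded all others of the 3 stages. It rose by 1.94 (SE 0.14, adjusted p = 2.38e-10), or 1.15 relative to the all-gene median, and by 1.49 in CTCF-AID −IAA (SE 0.12, adjusted p = 6.01e-11), where it went from 2.13, 2.17 and 2.48 to 7.15 and 8.13 TPM. In that line it then fell by 0.92 between 60 and 120 min (adjusted p = 2.44e-06). Fancb and Fancg, members of the core complex, rose by 1.31 and 1.01 by 60 min in CCNA-GFP (0.56 and 0.29 at the same total). Fancd2, which with Fanci forms the clamp that the core complex ubiquitylates, was at 1.53, 1.196 and 1.83 TPM in mitotic CCNA-GFP cells and 1.71 and 1.03 TPM at 60 min, without a call (0.03, SE 0.11, adjusted p = 0.828; −0.80 at the same total). In CTCF-AID −IAA it fell from 2.26, 1.93 and 2.48 to 1.66 and 1.24 TPM, with no overlap (−0.32, SE 0.08, adjusted p = 0.000869), and in the +IAA arm by 0.38 (SE 0.08, adjusted p = 0.00015). Fanci itself stood at 0.56 in CCNA-GFP (−0.42 at the same total) and 0.18 in CTCF-AID −IAA. Fancl, the ubiquitin ligase of the core complex, and Fancc stood at 0.16 and 0.15 at 60 min in CCNA-GFP and passed no test there, and both were lower at the same total (−0.56 and −0.28). In all, 5 of the 8 Fanconi genes rose by 60 min in CCNA-GFP and, in CTCF-AID −IAA, 5 rose and 1 fell, beside 88.3% of all genes that rose in the former and 84.8% that rose and 2.7% that fell in the latter, and at the same total 3 were higher and 5 lower in both lines.

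All 5 genes of strand break and mismatch repair rose by 60 min in both lines, with medians of 0.90 and 0.66, where 88.3% and 84.8% of all genes rose with medians of 0.79 and 0.63, and at the same total 2 were higher and 2 lower in CCNA-GFP and 1 and 2 in CTCF-AID −IAA. Parp1, the sensor of single-strand breaks, was at 3.87, 2.96 and 4.72 TPM in mitosis and 13.96 and 9.26 TPM at 60 min (1.52, SE 0.15, adjusted p = 6.40e-09). In CTCF-AID −IAA it was at 9.2, 6.54 and 10.7 TPM in mitosis, 16.7 and 16.7 TPM at 60 min (1.02, SE 0.12, adjusted p = 5.76e-08; 0.12 at the same total, not called) and 6.64, 4.997 and 9.36 TPM in asynchronous cells. In these asynchronous cells Parp1 was below mitosis by 0.31 (SE 0.11, adjusted p = 0.0285) without IAA and by 0.31 with it (SE 0.11, adjusted p = 0.0247), although the groups overlapped. Both calls were lost without replicate 3, without the replicate as a block (adjusted p = 0.354 and 0.315) and when each library was divided by its scaling factor (−0.06 and −0.09), and the call without IAA also without replicate 1. At the same total Parp1 was called lower in both, by 0.49 without IAA (adjusted p = 1.72e-07) and 0.52 with it (adjusted p = 4.54e-08). Xrcc1, the scaffold of single-strand break repair, rose as well, and its difference was 0.49 at 60 min in CCNA-GFP (SE 0.14, adjusted p = 0.00256; −0.61 at the same total, and not called without the block, divided by the scaling factor, or without replicate 1) and 0.72 at 120 min. Lig3, the partner of Xrcc1, rose by 0.90, and the mismatch repair genes Msh6 and Pms2 by 0.68 and 1.46, by 60 min in CCNA-GFP. At the same total Pms2 was higher (0.56), Lig3 stood at 0.04 and Msh6 was lower than in mitosis (−0.55, adjusted p = 4.14e-05). Blm, the Bloom helicase, differed by 0.26 (SE 0.12, adjusted p = 0.041; not called without the block, divided by the scaling factor, or without replicate 1 or 3) in CCNA-GFP and by 0.15, without a call, in CTCF-AID −IAA, and was lower at the same total (−0.64 and −0.58).

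In CTCF-AID −IAA, 21 of the 40 genes had risen and 4 had fallen at 40 min (63.3% and 3.21% of all genes), 30 and 4 at 60 min (84.8% and 2.7%), and 29 against 1 at 120 min (69.6% and 3.15%). Among asynchronous libraries 13 were higher and 1 lower than in mitosis (34.3% and 5.25%), but 29 and 0 when each library was divided by its scaling factor (66.0% and 1.51% of all genes), and 2 and 0 without the replicate as a block (11.6% and 1.24%). In the +IAA arm the counts were 19 and 4 at 40 min (58.7% and 3.87%), 27 and 4 at 60 min (82.2% and 4.04%), 26 and 1 at 120 min (68.2% and 4.42%), and 13 and 3 in asynchronous cells (40.9% and 5.89%), the last being 29 and 1 with the division (67.1% and 2.19%) and 2 and 1 without the block (17.3% and 1.75%). The genes lower at 40 and 60 min were Atr, Fancd2, Prkdc and Xrcc5 in both arms. At the same total the split at 60 min was 12 higher and 18 lower without IAA (30% and 45%, beside 39.4% and 31.1% of all genes) and 11 and 18 with it (beside 40.7% and 33.2%). Without the replicate as a block in the fit, fewer genes passed in some of these comparisons, such as 9 against 21 higher at 40 min without IAA (43.5% against 63.3% of all genes). The higher genes were then 8 at 40 min with IAA (40.0%), and at 120 min 14 without IAA (42.3%) and 15 with it (43.7%). Leaving out replicate 2 gave 16 higher at 120 min with IAA (41.5%). Leaving out replicate 3 gave 5 higher in asynchronous cells without IAA (17.3%) and 8 with it (26.9%). The tables of the lines were normalised separately, so their calls were only set side by side: 15 genes were called higher in both CCNA-GFP and CTCF-AID −IAA at 40 min, 30 at 60 min, 29 at 120 min and 13 in asynchronous cells. These are 37.5%, 75%, 72.5% and 32.5% of the 40, beside 48.8%, 83.5%, 69.1% and 32.8% of the 9574 genes in both tables. Across the 40 genes, which are not independent replicates, the differences of the lines had Pearson's r of 0.92, 0.93, 0.73 and 0.65 at these stages, and 0.90, 0.87, 0.70 and 0.73 over the genes in both tables.

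Between 60 and 120 min in CCNA-GFP, 3 of the 40 genes rose and 10 fell (9.6% and 28.5% of all genes), but 0 and 2 without the replicate as a block (1.79% and 12.1%). None rose without replicate 2 (2.39% of all genes did) and none fell without replicate 1 (6.37% did). Over the same interval in CTCF-AID −IAA 6 rose and 16 fell (7.31% and 53.1%), and 1 and 6 without the block (2.62% and 33.2%). In this arm the balance turned at the same total, with 18 higher and 7 lower (25.6% and 26.5% of all genes). In CCNA-GFP 8 were then higher and 8 lower (24.4% and 21.7%). At 60 min 24 genes were above and 6 below their asynchronous level in CCNA-GFP (67.0% and 8.6%), and 28 above and 5 below in CTCF-AID −IAA (75.2% and 7.06%). Those below were Atr, Brca2, Fancl, Rad51b and Xrcc5 in both lines, and Fancd2 in CCNA-GFP. Leaving out replicate 1 gave 13 above and 5 below in CCNA-GFP (44.7% and 6.96% of all genes). At the same total 12 were above and 18 below in CCNA-GFP (35.0% and 35.2% of all genes) and 12 and 17 in CTCF-AID −IAA (37.5% and 32.9%). By the highest stage mean in CCNA-GFP, 8 genes peaked at 50 min (a single library), among them Lig4, Mdc1 and Chek1, 6 at 60 min, among them Fancm and Parp1, and 18 at 90 min, among them Atm, Brca1 and Chek2. These are 20%, 15% and 45% of the 40 genes, beside 21.7%, 23.0% and 37.1% of all genes. The means at 60 and 90 min share replicate 1 alone, and within it 13 of the 18 genes, with Atm, Brca1 and Chek2 among them, were higher at 60 than at 90 min. The other genes were Prkdc, highest at 30 min, and 7 that were highest in asynchronous cells: Atr, Bard1, Brca2, Fancl, Palb2, Rad51b and Xrcc5 (17.5%, beside 10.4% of all genes). In CTCF-AID −IAA 21 genes, with Brca1, were highest at 50 min (52.5%, beside 48.1% of all genes). There 2, Atm and Trp53bp1, were highest at 60 min (5%, beside 18.0%) and 10, with Chek2, at 90 min (25%, beside 17.1%). With IAA 20 were highest at 50 min (50%, beside 51.2%) and 11 at 90 min (27.5%, beside 16.2%).

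In CTCF-AID −IAA 12 of the 40 genes (30%) had their lowest mean of all stages at 40 min, against 9.63% of all genes, and 6 (15%) did so in CCNA-GFP, against 5.81%. In the +IAA arm 7 (17.5%) did so, against 8.19%. Blm, Brca2, Fanca, Fancd2, Fancl and Rad50 were lowest at 40 min in both CCNA-GFP and CTCF-AID −IAA, but Brca2 and Fancd2 were not in the +IAA arm. Brca2, for example, was at 1.96, 1.44 and 1.97 TPM in mitosis, 1.55 and 1.13 TPM at 40 min and 2.14, 1.803 and 2.64 TPM in asynchronous cells of CTCF-AID −IAA, and its difference at 40 min was −0.17 (SE 0.10, adjusted p = 0.128). These are orders of means over 1 to 3 libraries, which do not all carry the same replicate numbers, with no test of the order.

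Shorter members had larger differences from mitosis than longer ones after release. Spans in Gencode run from 8.16 kb to 517 kb (Rad51b) over the 40 genes, with a median of 34.4 kb against 22.6 kb for all genes. Across the 40 genes Spearman's rho between length and the difference from mitosis in CCNA-GFP was −0.62, −0.53 and −0.41 at 40, 60 and 120 min, and 0.02 for asynchronous cells. Over all 9885 genes with a matched span it was −0.54, −0.37, −0.23 and 0.00, and in CTCF-AID −IAA it was −0.70 at 40 min and −0.57 at 60 min over the 40 genes and −0.59 and −0.37 over all. These are descriptions across genes that share libraries. At 60 min in CCNA-GFP the median difference was 0.95 for the 13 members under 25 kb, 0.70 for the 15 of 25 to 60 kb and 0.15 for the 12 over 60 kb, beside 0.95, 0.78 and 0.41 for all genes of these classes. The genes that did not rise were long: Rad51b, Fancc (212 kb), Prkdc (204 kb), Atr (94.2 kb), Xrcc5 (87.5 kb), Fancl (85.7 kb), Fancd2 (65.3 kb) and Brca2 (47.7 kb). On the deposited scale Atm (97.6 kb), Trp53bp1 (78.1 kb), Brca1 (63.2 kb) and Fancm (56.5 kb) rose by 60 min in CCNA-GFP. At the same total they stood at 0.26, −0.11, 0.52 and 0.92 there. TPM of a pre-mRNA is a level over the whole span, and its part in this relation was not tested.

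**Figure D3:**
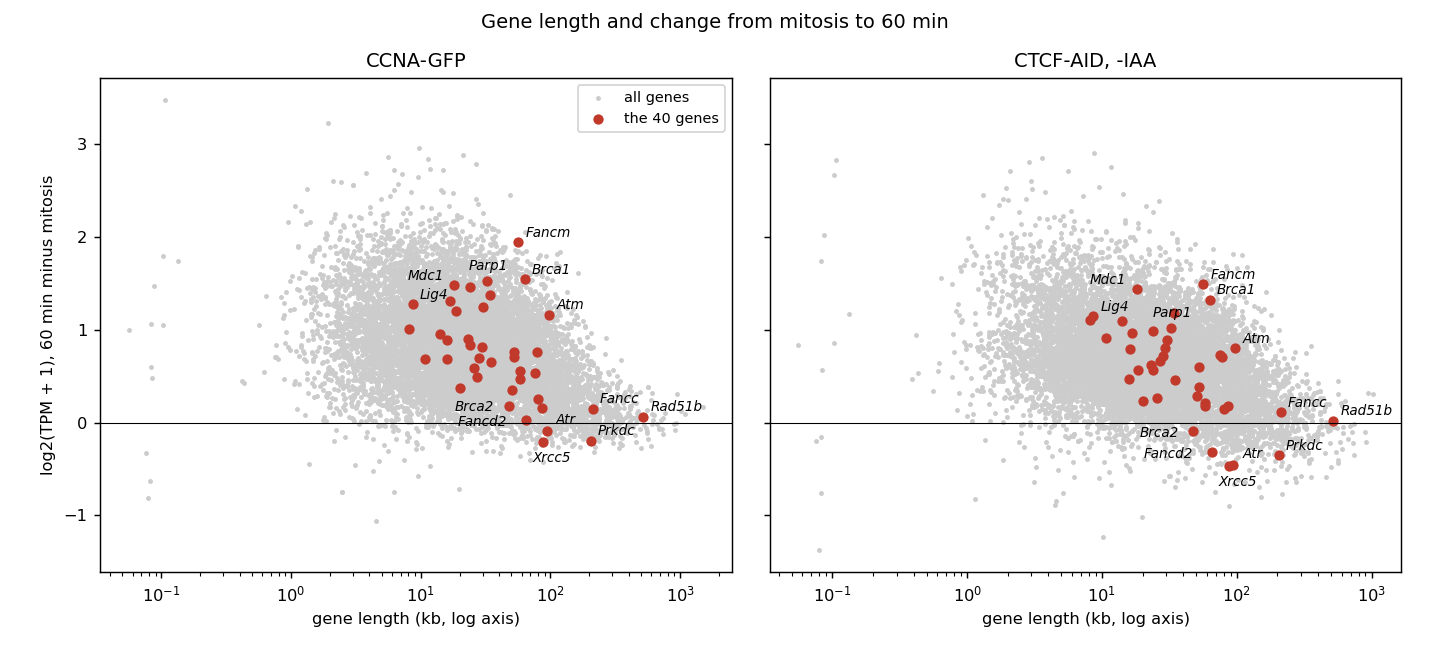
Gene length in kb (log axis) against the log2 difference of TPM + 1 between 60 min and mitosis in CCNA-GFP and in CTCF-AID without IAA, with the 40 genes in colour and all genes in grey. Long members such as Rad51b, Prkdc, Atr and Xrcc5 lie near or below 0, and Atm, of nearly the length of Atr, lies at 1.16 in CCNA-GFP.

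Promoter windows (250 bases before to 50 after the start) were available from RefSeq on GRCm38.p6 for 34 of the 40 genes, all but Rad51d, Rad50, Nbn, Xrcc2, Prkdc and Fancd2. They were searched on both strands for E2F motifs (TTTCGCGC, TTTGGCGC or TTTCCCGC), the NF-Y motif CCAAT, and a core of the CTCF motif (AGGNGGCAG). The windows below show 2 genes that rose by 60 min (Fancm, chr12:65075353-65075652, and Mdc1, chr17:35841248-35841547) and 2 that passed no test there in CCNA-GFP (Brca2, chr5:150522371-150522670, and Atr, chr9:95857347-95857646), all on the plus strand. Capitals mark the matches, a CCAAT in Fancm, a CCAAT and then an E2F motif in Mdc1, an E2F motif on the reverse strand in Brca2, and none in Atr.
Fancm: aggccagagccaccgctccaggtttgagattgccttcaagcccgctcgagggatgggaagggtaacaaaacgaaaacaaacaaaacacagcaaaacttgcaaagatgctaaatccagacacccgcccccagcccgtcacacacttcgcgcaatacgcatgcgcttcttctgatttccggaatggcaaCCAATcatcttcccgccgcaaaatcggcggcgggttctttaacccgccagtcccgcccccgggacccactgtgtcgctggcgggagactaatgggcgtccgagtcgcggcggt
Mdc1: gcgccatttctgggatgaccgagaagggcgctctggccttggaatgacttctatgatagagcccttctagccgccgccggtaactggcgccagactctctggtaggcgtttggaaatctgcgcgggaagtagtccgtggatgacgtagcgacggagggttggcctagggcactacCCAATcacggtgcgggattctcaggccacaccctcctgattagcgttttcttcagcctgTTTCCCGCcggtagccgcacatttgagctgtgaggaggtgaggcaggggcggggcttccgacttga
Brca2: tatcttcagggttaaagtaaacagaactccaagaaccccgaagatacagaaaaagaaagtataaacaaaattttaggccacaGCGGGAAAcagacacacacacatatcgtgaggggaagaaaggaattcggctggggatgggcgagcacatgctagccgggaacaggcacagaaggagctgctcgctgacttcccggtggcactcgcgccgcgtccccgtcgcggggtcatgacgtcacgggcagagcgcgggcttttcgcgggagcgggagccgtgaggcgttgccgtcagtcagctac
Atr: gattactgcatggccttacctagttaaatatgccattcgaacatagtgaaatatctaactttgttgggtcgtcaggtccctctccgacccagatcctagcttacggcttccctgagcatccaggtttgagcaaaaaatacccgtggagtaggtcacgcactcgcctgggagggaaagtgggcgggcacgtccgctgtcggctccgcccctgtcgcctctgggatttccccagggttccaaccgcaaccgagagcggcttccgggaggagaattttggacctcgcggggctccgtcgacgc

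An E2F motif was present in 8 of the 34 members (Bard1, Brca2, Chek2, Fancg, Mdc1, Msh6, Rad51c and Xrcc6), or 23.5%, in 9.46% of 74 other repair and damage signalling genes, and in 4.40% of the 7952 listed genes with a window. CCAAT was present in 58.8% of the members, 55.4% of those other repair genes and 43.8% of all, and the CTCF core in 8.82% (Lig4, Xrcc5 and Xrcc6), 5.41% and 5.34%. There were 1.12 windows per member, 1.19 per other repair gene and 1.27 per gene overall. At 60 min in CCNA-GFP the 8 with an E2F motif had a median difference of 0.73 (0.18 for Brca2 to 1.48 for Mdc1), and the 26 without it 0.74. The CTCF core was present in Lig4 and Xrcc5, the former among the members that rose most at 40 min and the latter the lowest. A match is a stretch of letters and not a bound site.

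The IAA arms were compared to ask whether loss of CTCF changes these genes. At each stage a gene was called at an adjusted p under 0.1 and a difference of at least 0.2, and genes called in asynchronous cells or at 2 or more post-mitotic stages had a combined call, which 0.342% of all genes had as higher and 0.762% as lower with IAA. Of the 40 genes 1 had it, Nbn, the subunit that recruits Atm to breaks, which was lower with IAA. Nbn was at 1.04, 1.26 and 1.43 TPM in asynchronous cells without IAA and 0.413, 0.636 and 0.609 TPM with it, at 2.02 and 2.21 TPM against 0.966 and 0.974 TPM with IAA at 90 min, and at 1.94 and 1.87 TPM against 0.936 and 1.02 TPM with IAA at 120 min. In these 3 stages all libraries with IAA were below all those without. In mitosis it was at 1.22, 1.07 and 1.29 TPM against 1.17, 0.882 and 1.13 TPM with IAA, with overlapping arms, and at 60 min at 2.27 and 1.704 TPM against 1.27 and 1.21 TPM with IAA.

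The IAA difference of Nbn was −0.09 in mitosis and −0.21, −0.32, −0.43 and −0.41 at 20, 40, 50 and 60 min, none of them called on its own. The mean difference over these 4 stages, a test chosen after seeing the data, was called lower (−0.34, adjusted p = 0.000998), as it was for 0.781% of all genes, but not without replicate 1 (−0.27, adjusted p = 0.9998). Nbn was called at 90 min (−0.66, SE 0.11, adjusted p = 0.00225), at 120 min (−0.56, SE 0.11, adjusted p = 0.0166) and in asynchronous cells (−0.53, SE 0.09, adjusted p = 0.00182), and its difference was negative in every pair of equal replicate number at every stage. With the replicate as a block Nbn was also called at 50 min (adjusted p = 0.0197) and 60 min (adjusted p = 0.0293). From mitosis to 60 min Nbn rose by 0.46 without IAA (SE 0.09, adjusted p = 2.97e-05; −0.13 at the same total, not called) and differed by 0.15 with IAA, without a call (adjusted p = 0.117; −0.39 at the same total, called lower). In asynchronous +IAA cells it was 0.41 below mitosis (SE 0.08, adjusted p = 0.000181). The IAA effect on the rise from mitosis to 60 min, tested as an interaction, was −0.32 for Nbn (adjusted p = 0.9999), and none of the 40 genes was called (0.156% of all genes were; 1 of the 40, or 2.5%, had an unadjusted p under 0.05, beside 2.09% of all genes). The combined call of Nbn depends on which replicate numbers are kept: without the libraries of replicate 1 no gene of the table had one, and in asynchronous cells Nbn then had a difference of −0.53 and an adjusted p of 0.865. Without replicate 3 Nbn was called at 120 min only (adjusted p = 0.0594; 0.157 in asynchronous cells), and without replicate 2 at 90 min and in asynchronous cells (adjusted p = 0.0117 and 0.0335).

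**Figure D4:**
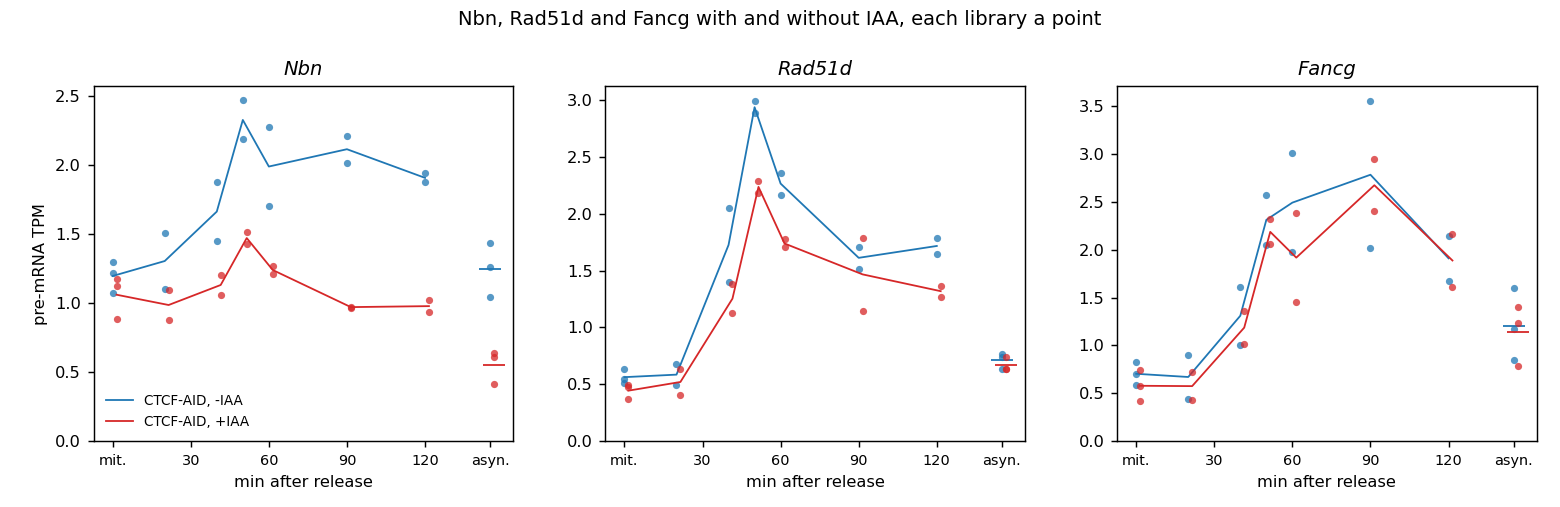
Pre-mRNA TPM of Nbn, Rad51d and Fancg in every CTCF-AID library by stage, without and with IAA; points are libraries, lines join stage means and short bars are asynchronous means. Nbn libraries with IAA lie below those without at every stage after mitosis, while the arms of Fancg overlap at each stage.

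For the other 39 genes no stage gave a call, and their IAA differences ran from −0.28 (Rad51d at 50 min) to 0.13 (Fancb at 60 min), beside a median SE of 0.16 in mitotic and asynchronous cells and 0.19 at the other stages. At 40 min 2 of the 40 genes (5%) had an unadjusted p under 0.05, beside 0.83% of all genes, and in mitosis and at 20 min 0, beside 0.225% and 0.303%. The largest mean differences over 20 to 60 min after that of Nbn were −0.22 for Rad51d, −0.12 for Fancg and −0.11 for Xrcc1. For Rad51d this mean was called lower (adjusted p = 0.0873), but the call was lost with a pseudocount of 0.1 (adjusted p = 0.303), at the same total (−0.18, under the least difference of 0.2), and without replicate 1, 2 or 3 (adjusted p = 0.9998, 0.526 and 0.295). With the replicate as a block its adjusted p was 0.0069, and the means of Fancg and Xrcc1 were not called. Rad51d, which binds Xrcc2, was at 2.36 and 2.17 TPM at 60 min without IAA and 1.702 and 1.77 TPM with it, with no overlap, and at 0.762, 0.63 and 0.736 TPM against 0.6297, 0.636 and 0.738 TPM with IAA in asynchronous cells, with overlap. Fancg was at 3.01 and 1.97 TPM against 2.38 and 1.45 TPM with IAA at 60 min, and Xrcc1 at 6.72 and 4.38 TPM against 5.74 and 3.79 TPM with IAA, the arms of both overlapping. At 20 min 32 of the 40 genes (80%) were lower with IAA in every pair, beside 57.6% of all genes, and at 60 min 21 (52.5%) were, beside 38.3%. In mitosis 40% were, beside 19.9%, and in asynchronous cells 22.5%, beside 13.1%. At 40 min the shares were 52.5% and 53.2%, and at 50 min 25% and 28.1%, with 15% and 28.9% higher in every pair. These are counts of signs over 2 or 3 pairs and no calls.

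In all, 9 members share their locus with a listed gene on the opposite strand: Fanca with Zfp276, Fanci with Polg, Lig3 with Rffl, Mre11a with Ankrd49, Msh6 with Fbxo11, Rad54l with Lrrc41, Trp53bp1 with Tubgcp4, Xrcc3 with Klc1 and Xrcc6 with Desi1. Libraries were stranded, but whether strand was used in the quantification is not given in the sources used here, so the values of these 9 genes are less certain. None overlapped a listed gene on its own strand.

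Of 100 other genes of DNA repair and damage signalling listed in CCNA-GFP, 50 had risen at 40 min (median 0.28; 49.3% of all genes had) and 95 at 60 min (median 0.87; 88.3%), and none was lower, whereas at the same total 36 were higher and 38 lower at 60 min. In CTCF-AID, 103 such genes were listed, of which 93 rose and 1 fell at 60 min without IAA (90.3% and 0.971%, beside 84.8% and 2.7% of all genes) and 90 and 1 with it (87.4% and 0.971%, beside 82.2% and 4.04%), and at the same total 39 were higher and 29 lower without IAA and 39 and 33 with it. Rad9a, a subunit of the checkpoint clamp that helps activate Atr, rose from 1.53, 1.40 and 1.63 TPM in mitosis to 9.40 and 7.32 TPM at 60 min in CCNA-GFP (1.90, SE 0.13, adjusted p = 2.28e-10). Ung, the uracil-DNA glycosylase of base excision repair, rose by 1.98 (SE 0.14, adjusted p = 2.53e-10) and Rad51ap1, which acts in recombination, by 1.68. Rad18, a ubiquitin ligase of damage tolerance, and Xrcc4, the partner of Lig4, had the lowest mean changes of this set over 20 to 90 min and stood at −0.18 and 0.07 at 60 min in CCNA-GFP, and Rad18 was the gene that fell in CTCF-AID −IAA (−0.45, SE 0.08, adjusted p = 7.68e-06). Parp3, a relative of Parp1 listed in CTCF-AID alone, was the one gene of this set with a combined IAA call. It was higher with IAA, at 0.24, 0.39 and 0.28 TPM without and 0.73, 0.67 and 0.96 TPM with IAA in asynchronous cells (0.45, SE 0.09, adjusted p = 0.00467). Its stage means without IAA exceeded 0.5 TPM, the level for listing, at 50 min alone (0.56 TPM). With IAA its asynchronous mean was 0.79 TPM. Parp3 may thus be listed only through the arm where it is high, so its call is a description and no independent test.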

How the data were processed

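RNA of 55 libraries was sequenced. Per the study's methods, the authors depleted ribosomal RNA and made stranded libraries read from both ends. They used STAR on mm10 and RSEM on Gencode vM12 (extended by 1 unspliced isoform per gene), and deposited the TPM of that isoform. To be listed, a gene had to exceed a mean of 0.5 TPM when asynchronous, or else do so for 2 or more post-release samples. The mitotic level did not count for listing. Deposited values of a library are whole multiples of a step, TPM rounded at 0.01 times a factor of 1.84–3.81 that the sources used here do not name. The headers of asynchronous CTCF-AID libraries are garbled, and their stage was read with the help of the column names of the study's own dataset. No column was left unused. Tests used limma 3.58.1 (R 4.3.3; lmFit, then eBayes with trend) within a table, on log2(TPM + 1), with Benjamini-Hochberg adjustment, since TPM are not counts. The tables were normalised separately. The replicate number entered as a block for comparisons of stages but not of IAA arms. Numbers pair the libraries, since deviations from group means correlated above 0.1 between same-numbered libraries in 20 of 20 pairs of CCNA-GFP groups (0.130–0.802, median 0.433) and 88 of 88 of CTCF-AID groups (0.110–0.810, median 0.488), and pairs of stages with 2 shared numbers give 1 value by construction. Replicates are independent per the study's methods, and p-values measure only their spread. The fits were tested on simulated data. The genes and lists were chosen with earlier results of these data known. Named with values per library were the 3 members with the largest and the 3 with the lowest signed mean change over 20 to 90 min in CCNA-GFP, 9 genes fixed by name (Atm, Atr, Chek1, Chek2, Brca1, Brca2, Prkdc, Parp1 and Trp53bp1), members lower than in mitosis, members with a combined IAA call, and the 3 others with the largest mean IAA difference; Lig4 was added after its values were seen, and other members are given as examples of their role. Of other pathway genes the 3 with the largest, the 2 with the lowest signed change and those with a combined IAA call were named. Spans were taken from vM21 of Gencode (GRCm38, the same assembly as mm10) where the authors used vM12, and promoters from RefSeq on GRCm38.p6. Alternatives were the fit without or with the block, a pseudocount of 0.1, a mean of at least 1 TPM, scaling to the same total, division by the factor, and leaving out each replicate number. Other calculations used matplotlib 3.10.9, scipy 1.17.1, pandas 2.3.3 and numpy 2.4.6 in Python 3.11.15.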

Additional observations from a re-analysis of the deposited data

Results flagged for a closer look

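Some members moved in opposite directions in every replicate of CCNA-GFP and of CTCF-AID −IAA, as log2 differences of TPM + 1 from mitosis. The tables of the lines were normalised separately and the difference between them was not tested. At 40 min Fanci was at 0.096 in CCNA-GFP and −0.079 in CTCF-AID −IAA, Mre11a at 0.11 and −0.087, and Palb2 at 0.099 and −0.0080. At 60 min Brca2 was at 0.18 and −0.095. In asynchronous cells Atm was at 0.21 and −0.11, Fancd2 at 0.28 and −0.15, and Parp1 at 0.21 and −0.31. With every library scaled to the same total, the mean differences of all these genes were negative in both lines: in CCNA-GFP −0.35 for Fanci, −0.36 for Mre11a and −0.24 for Palb2 at 40 min, −0.57 for Brca2 at 60 min, and −0.15 for Atm, −0.12 for Fancd2 and −0.29 for Parp1 in asynchronous cells.

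Between the IAA arms, Palb2 at 40 min was below mitosis in every pair without IAA (−0.0080) and above it in every pair with IAA (0.089), a difference that was not tested, and at the same total it was at −0.43 and −0.30.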

How the results depend on the processing

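Counts are of the 40 genes higher (or lower) than in the reference stage. At the same total they were 6, 14, 13, 10 and 9 at 40, 60, 90, 120 min and in asynchronous CCNA-GFP cells (lower 21, 20, 17, 16 and 7), beside 23.7%, 36.4%, 31.8%, 28.7% and 24.8% of all genes (lower 31.3%, 33.3%, 26.2%, 23.5% and 20.3%). They were 7, 12, 10 and 6 (lower 22, 18, 14 and 9) at 40, 60, 120 min and in asynchronous CTCF-AID −IAA cells, beside 33.3%, 39.4%, 32.0% and 27.2% (lower 36.7%, 31.1%, 25.9% and 21.4%). With IAA they were 7, 11, 13 and 8 (lower 24, 18, 18 and 9), beside 33.2%, 40.7%, 33.5% and 29.8% (lower 38.6%, 33.2%, 28.7% and 22.4%). From 60 to 120 min 8 were higher and 8 lower in CCNA-GFP (24.4% and 21.7%). In CTCF-AID −IAA 18 were higher and 7 lower (25.6% and 26.5%), against 6 and 16 on the deposited scale. At 60 min 12 were above and 18 below asynchronous cells in CCNA-GFP (35.0% and 35.2%), and 12 and 17 in CTCF-AID −IAA (37.5% and 32.9%). The combined IAA calls of all genes were then 63 higher and 142 lower, and positive differences at 60 min turned negative for 21 of 37 members in CCNA-GFP (17 then called lower) and 17 of 35 in CTCF-AID −IAA (13 called lower), among them Rad51b (−0.53), Blm (−0.64), Brca2 (−0.57), Trp53bp1 (−0.11), Fancd2 (−0.80), Nbn (−0.062) and Xrcc1 (−0.61) in CCNA-GFP, and Chek1 (−0.18), Nbn (−0.13) and Xrcc1 (−0.13) in CTCF-AID −IAA; the cause was not tested beyond the shift of the all-gene median. Without the replicate block the counts were 6 at 40 min and 18 in asynchronous CCNA-GFP cells, 9, 14 and 2 (none lower) at 40, 120 min and in asynchronous CTCF-AID −IAA cells (all genes 43.5%, 42.3% and 11.6%), 8, 15 and 2 (1 lower) with IAA (all genes 40.0%, 43.7% and 17.3%), 0 higher and 2 lower from 60 to 120 min in CCNA-GFP, 1 and 6 in CTCF-AID −IAA, and 3 lower at 60 min than in asynchronous CTCF-AID −IAA cells, and Fancd2 stood at −0.096 in CCNA-GFP at 60 min. With a replicate block the combined IAA calls of all genes were 96 higher and 173 lower against 35 and 78, and no other IAA call of a member at a single stage changed than those of Nbn given above. A pseudocount of 0.1 made 1 gene, Xrcc5, lower at 60 min in CCNA-GFP, and a mean of at least 1 TPM left 42 combined lower calls. Division by the factor gave 29 higher and 0 lower (−IAA) and 29 and 1 (+IAA) in asynchronous cells, and −0.066 for Fancd2 in CCNA-GFP. Leaving out replicates 1, 2 or 3 in turn gave ranges of 7–13 (lowest without replicate 1, all genes 26.4–42.2%) at 40 min and 21–34 (without 3, 47.0–67.8%) in asynchronous cells in CCNA-GFP. In that line they were 0–3 higher (without 2, 2.39–8.47%) and 0–10 lower (without 1, 6.37–33.4%) from 60 to 120 min, and 13–25 (without 1, 44.7–69.0%) above asynchronous cells at 60 min. In CTCF-AID −IAA they were 0–1 lower (without 2, 1.475–3.00%) at 120 min, and 5–12 higher (without 3, 17.3–29.9%) and 0–1 lower (without 1 or 3, 2.62–4.25%) in asynchronous cells. In that arm they were 1–7 higher (without 2, 2.50–6.96%) from 60 to 120 min, and 3–5 (without 2, 5.34–5.69%) below asynchronous cells at 60 min. With IAA they were 16–31 higher (without 2, 41.5–76.8%) and 1–2 lower (2 without 2 or 3, 1.39–5.86%) at 120 min, and 8–13 higher (without 3, 26.9–37.5%) and 1–3 lower (without 3, 3.19–5.38%) in asynchronous cells. The combined IAA calls ranged over 0–21 higher and 0–59 lower of all genes (0 without 1) and 0–1 lower of the members (0 without 1 or 3), and Fancd2 at 60 min in CCNA-GFP ranged from −0.064 (without 1) to 0.16 (without 2), and was −0.0090 without 3. With TPM alone, low members such as Atr, under 1 TPM in mitotic CCNA-GFP cells, carry an unknown counting error.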
